A study of Mus musculus with 6 samples.

Results

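Complement is a cascade of plasma and cell-surface proteins, and 32 of its components, receptors and regulators were followed in the obstructed mouse kidney, out of 34714 genes in the table of counts. The members are a list of gene symbols, ordered here by pathway arm, and all 32 had a row in the table. RNA was sequenced from kidneys of 3 miR-92b knockout and 3 WT libraries, collected 10 days after unilateral ureteral obstruction (UUO), an operation that ties off 1 ureter. The mice were male and 8 weeks old at surgery. Knockouts carried a global deletion of Mir92b (strain C57BL/6JGpt- Mir-92bem22Cd549/Gpt), which by design removes the microRNA from every cell type, and the wild type was C57BL/6J. All 6 kidneys had been ligated, and sham kidneys were not analysed here, so no value below measures the effect of obstruction itself. The ligated kidneys are called nonfibrotic controls in the treatment protocol, whereas UUO is what the treatment label and the column headers say.

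Library totals ran from 44476507 to 50769801 counts in the knockout and from 38738204 to 51932509 counts in the wild type. Kidney identity was plain from Umod, the major urinary protein of the thick ascending limb (615 to 3773 CPM in the knockout and 1044 to 3872 CPM in the wild type), and from Slc34a1, the phosphate transporter of the proximal tubule (318 to 937 in the knockout and 529.6 to 1079.7 CPM in the wild type). CPM are counts scaled by TMM to a common library size. The tubule injury marker Havcr1 measured 966 to 1092 CPM in the knockout and 443 to 1387 CPM in the wild type, and Lcn2 measured 298 to 499.7 in the knockout and 350.1 to 562 CPM in the wild type. The table has 0 microRNA rows, so the deletion could not be checked in these libraries. Nothing in the labels states that each replicate is another animal. P-values therefore measure only the spread between these libraries, which may be technical.

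The cascade starts in 3 ways. In the classical pathway C1q binds antibody or damaged surfaces and its proteases C1r and C1s cleave C4 and C2. In the lectin pathway, collectins and ficolins act through MASP proteases, and the alternative pathway amplifies cleavage of C3 with factor B and properdin. Cleaved C3 coats targets, the small fragments C3a and C5a act on receptors of myeloid cells, and C5 to C9 form the membrane attack complex. Membrane and soluble regulators protect host cells. In the kidney, tubule cells are known to make C3 and factor B, while macrophages are the main source of C1q.

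The deleted microRNA acts through its seed, shown because the comparison is of kidneys with and without this microRNA. Whether other microRNAs carry the same seed was not examined. Mature miR-92b-3p lies at chr3:89227126-89227147 on the minus strand (RefSeq, GRCm38.p6), and its seed, bases 2 to 8, is in capitals.
miR-92b-3p: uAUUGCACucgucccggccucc

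Sites that pair with this seed were searched in the longest 3' UTR of each gene (GENCODE M21, GRCm38), as the 8mer GTGCAATA, the 7mer-m8 GTGCAAT and the 7mer-A1 TGCAATA. Sites for miR-92b-5p, the other mature product of Mir92b, were not searched. Of the 32 members, 0 held the 8mer and 2 held a 7mer (6.25%), against 12.7% of 21028 genes with any of the 3 site types. The members' 3' UTRs were shorter, with a median of 454 nt against 960 nt over all genes. The sites of both members are shown with 8 bases on each side, in the sense of the transcript, with the match in capitals. The C3ar1 match is a 7mer-m8 at chr6:122849533-122849539 (minus strand) and the Itgax match a 7mer-A1 at chr7:128150292-128150298 (plus strand).
C3ar1 site: tacaccatGTGCAATgaataact
Itgax site: aagcattcTGCAATAggattccc

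Log2 fold changes (knockout over wild type) of these 2 genes were 0.23 ± 0.14 for C3ar1 and 0.28 ± 0.35 for Itgax (SE, n = 3 per group), with edgeR adjusted p of 0.653 and 0.805. A match describes these letters only and does not show that the site is used.

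Most of the listed complement genes lay somewhat above the wild type in the knockout kidney, by modest amounts that did not pass the test over all genes. The members of smallest unadjusted p were Itgam, C1qb and Clu. Clu, which encodes the soluble regulator clusterin, had a log2 fold change of 0.51 ± 0.22, Itgam, a chain of complement receptor 3, of 0.40 ± 0.13, and C1qb, a chain of C1q, of 0.33 ± 0.13 (SE, n = 3 per group). Larger changes with wider errors were those of Fcna (1.57 ± 1.10), C6 (0.70 ± 0.33) and C3 (0.62 ± 0.44). Of the members below 0, Cd55 had the smallest unadjusted p (-0.31 ± 0.15), and Hc the largest change (-0.59 ± 0.73). Of the 31 members that passed the filter on low counts, 26 had a log2 fold change above 0 and 5 below, with a median of 0.26. Over all 18927 genes tested, 47.7% were above 0 and the median was -0.02. Of 19 tested complement genes outside the list, 9 were above 0 and 10 below, with a median of -0.03. The members share cells and libraries and were chosen with earlier results of these data known, so this is a description. In bulk tissue, fewer cells of a type and less RNA per cell cannot be told apart.

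With edgeR's quasi-likelihood test and Benjamini-Hochberg adjustment over all genes, 0 of the 31 members were called at an adjusted p under 0.05, as were 0% of the genes tested. The smallest adjusted p among members was 0.627. DESeq2 and limma-voom also called 0 members, while over all genes DESeq2 put 34 higher (0.18%) and 28 lower (0.148%), and limma-voom put 1 higher (0.00528%) and 2 lower (0.0106%). At an unadjusted edgeR p under 0.05, 3 members were higher (Itgam, C1qb and Clu) and 0 lower, against 4.38% of all genes higher and 3.52% lower. All 3 knockout libraries lay above all 3 wild-type libraries for 6 members (19.4%), against 8.95% of all genes. These were C1qb, C1qc, C1ra, C3ar1, Itgam and Clu. They lay below for 1 member (3.23%), Cd55, against 7.2% of all genes.

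**Figure D1:**
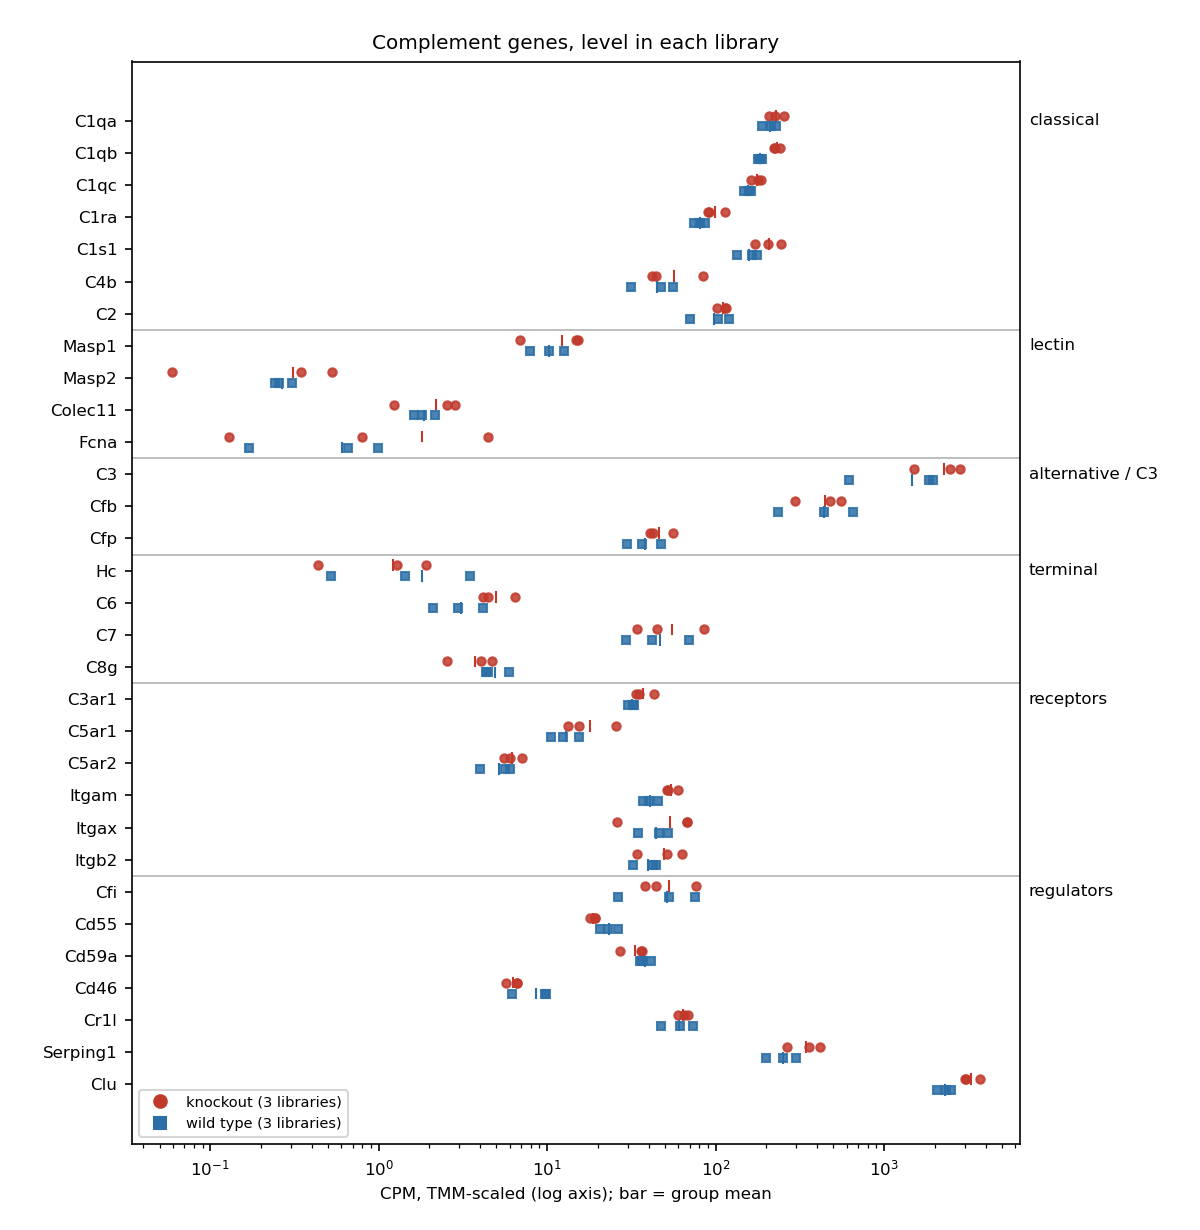
Level of each of the 31 complement genes that passed the filter, in CPM on a log axis, by pathway arm, with 1 point per library (knockout circles above wild-type squares) and a bar at each group mean. Clu and C3 sit highest, Masp2 and Fcna lowest, and for most genes the 2 groups overlap.

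Per kilobase of the longest transcript, clusterin was the highest member at 1799 CPM per kb in the knockout and 1266 CPM per kb in the wild type. C3, the central component, followed at 440.2 in the knockout and 286 CPM per kb in the wild type. The C1q chains C1qa and C1qb came next. C1qa was at 220.2 in the knockout and 203 CPM per kb in the wild type. C1qb was at 211 in the knockout and 169 CPM per kb in the wild type. The remaining chain, C1qc, was lower than Serping1 and Cfb, at 146 in the knockout and 129 CPM per kb in the wild type. Serping1, the inhibitor of C1r and C1s, was at 195 in the knockout and 141 CPM per kb in the wild type, and Cfb at 161 in the knockout and 160.3 CPM per kb in the wild type. At the other end, Masp2 was lowest of the members that passed the filter, at 0.101 in the knockout and 0.0876 CPM per kb in the wild type. The obstructed kidney of either genotype carried RNA for the start of the classical pathway, for C3 and for soluble regulators at much higher levels than for the lectin proteases or for most terminal components.

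All 7 classical pathway members had a log2 fold change above 0, with a median of 0.29, against 47.7% of all genes above 0. None passed the test, the groups overlap for C1qa, C1s1, C4b and C2, and the values of C4b and C2 were below 0 without 1 library, as given with each gene. The genes of C1q stand next to each other on chromosome 4 (136880126 to 136898844, GRCm38.p6) and encode the 3 chains of a single protein. C1qb measured 222, 226 and 241 CPM in the knockout and 188, 179.6 and 183 CPM in the wild type. C1qc was at 163, 187 and 178 CPM in the knockout and 161, 147 and 158 CPM in the wild type. For C1qa the values were 207, 225 and 255 CPM in the knockout and 229, 189 and 214 CPM in the wild type. The groups do not overlap for C1qb, touch closely for C1qc (knockout replicate 1 at 163 and wild-type replicate 1 at 161 CPM) and overlap for C1qa, where knockout replicate 1 is below both wild-type replicates 1 and 3. Fold changes were 0.33 ± 0.13, 0.18 ± 0.13 and 0.12 ± 0.15 for C1qb, C1qc and C1qa on the log2 scale (edgeR adjusted p = 0.627, 0.68 and 0.809). With each library's trend over transcript length removed, the 3 values were 0.52, 0.36 and 0.33. Other members moved in both directions under this correction. Itgam went from 0.40 to 0.32, C3 from 0.62 to 0.53 and Clu from 0.51 to 0.60. The median over members was 0.25 with the correction and 0.26 without it. Without knockout replicate 3 the log2 fold change of C1qa was 0.04.

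The 3 chains kept nearly the same proportions in every library. C1qb made up 37.4, 35.5 and 35.8% of the summed C1q CPM in the knockout and 32.5, 34.8 and 32.9% in the wild type, so that its share was above the wild-type range in each knockout library. C1qa made up 35.0, 35.2 and 37.8% in the knockout and 39.6, 36.7 and 38.6% in the wild type. C1qc stayed between 26.4 and 29.3% in the knockout and between 27.9 and 28.5% in the wild type. Summed over the chains, C1q was at 592, 637 and 675 CPM in the knockout and at 578, 516 and 554 CPM in the wild type.

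Beside C1q stand the markers of macrophages and monocytes, cells that make C1q. The summed level of the 18 markers, led by Apoe and Lyz2, was 2854, 3259 and 3474 CPM in the knockout and 2855, 2826 and 2619 CPM in the wild type, with 13 of the 18 above 0, the median log2 fold change at 0.14 and none at 0 in all libraries. Apoe and Lyz2 made up most of each sum. Apoe was at 1209, 1389 and 1576 CPM in the knockout and 1508, 1305 and 1132 CPM in the wild type. Lyz2 was at 785, 930 and 1033 CPM in the knockout and 567, 657 and 658 CPM in the wild type. C1q per marker CPM was 0.207, 0.196 and 0.194 in the knockout and 0.203, 0.183 and 0.212 in the wild type. These ratios overlap fully and depend mainly on Apoe and Lyz2. The ratio depends on the marker. Per CPM of Adgre1 it was 10.3, 7.61 and 11.3 in the knockout and 21.9, 10.2 and 9.95 in the wild type. Per CPM of Csf1r it was 3.08, 2.79 and 3.85 in the knockout and 3.84, 2.93 and 3.69 in the wild type. The part of these cells in the C1q values was not tested.

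Of the C1 proteases, C1s1 measured 172, 244 and 205 CPM in the knockout and 164, 177 and 134 CPM in the wild type. C1ra was at 90.1, 114 and 91.3 CPM in the knockout and 74.6, 86.2 and 80.9 CPM in the wild type. Only the groups of C1ra are fully apart; for C1s1, knockout replicate 1 lies within the wild-type range. Their log2 fold changes were 0.39 ± 0.18 for C1s1 and 0.29 ± 0.14 for C1ra (edgeR adjusted p = 0.627 for both), and without knockout replicate 2 they were 0.25 and 0.17. C1r and C1s each have a near-identical second copy in the mouse (C1rb and C1s2), which may share reads. C2 and C4b are the substrates of C1s. C2 measured 113, 115 and 102 CPM in the knockout and 70.1, 103 and 119.5 CPM in the wild type, where replicate 1 stands low, and its log2 fold change of 0.18 ± 0.20 was -0.01 without that library. C4b was at 84.4, 44.4 and 42.0 CPM in the knockout and 31.2, 47.7 and 55.7 CPM in the wild type. Its log2 fold change of 0.34 ± 0.32 rests on knockout replicate 1 and was -0.05 without it. C4b and its near-identical neighbour C4a may also share reads.

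Promoter windows of C1qb and Itgam are shown because both genes had an unadjusted p under 0.05 and both are genes of myeloid cells. Each window spans a gene start (RefSeq, GRCm38.p6), most of it upstream, and reads 5' to 3' on the gene's strand. Capitals mark GAGGAA, the core of sites for PU.1, a transcription factor of myeloid cells, or its reverse complement. The C1qb window is chr4:136886151-136886450 on the minus strand and the Itgam window chr7:128062390-128062689 on the plus strand.
C1qb promoter: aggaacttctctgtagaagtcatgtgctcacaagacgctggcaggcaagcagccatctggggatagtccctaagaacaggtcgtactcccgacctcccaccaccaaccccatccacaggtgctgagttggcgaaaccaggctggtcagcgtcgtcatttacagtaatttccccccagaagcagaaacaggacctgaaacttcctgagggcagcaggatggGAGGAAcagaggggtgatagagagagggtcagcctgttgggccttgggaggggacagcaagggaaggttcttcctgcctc
Itgam promoter: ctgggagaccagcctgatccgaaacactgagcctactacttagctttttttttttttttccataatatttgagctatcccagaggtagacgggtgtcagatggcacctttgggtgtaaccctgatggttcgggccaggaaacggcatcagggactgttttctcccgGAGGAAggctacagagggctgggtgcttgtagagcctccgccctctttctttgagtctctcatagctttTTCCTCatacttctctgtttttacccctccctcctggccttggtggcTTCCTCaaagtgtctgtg

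The core stood once in the C1qb window, at -30, and at -84, -15 and 33 in the Itgam window, counted from the gene start. Windows were found for 23 of the 32 members, 26 windows in all, and 9 of the 23 members (39.1%) held the core, against 31.3% of 27025 genes with a window. These were C1qb, C1qc, C1ra, C5ar2, Cd59a, Cfp, Fcna, Itgam and Vsig4. The windows of the receptor genes C3ar1, C5ar1 and Itgax held no core. The STAT element TTCNNNGAA was in 4 members (17.4%), against 9.55% of genes. Both strands were searched. The STAT element was in neither of the 2 windows shown, so it did not overlap the capitals there. These are matches of letters and not measured binding.

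**Figure D2:**
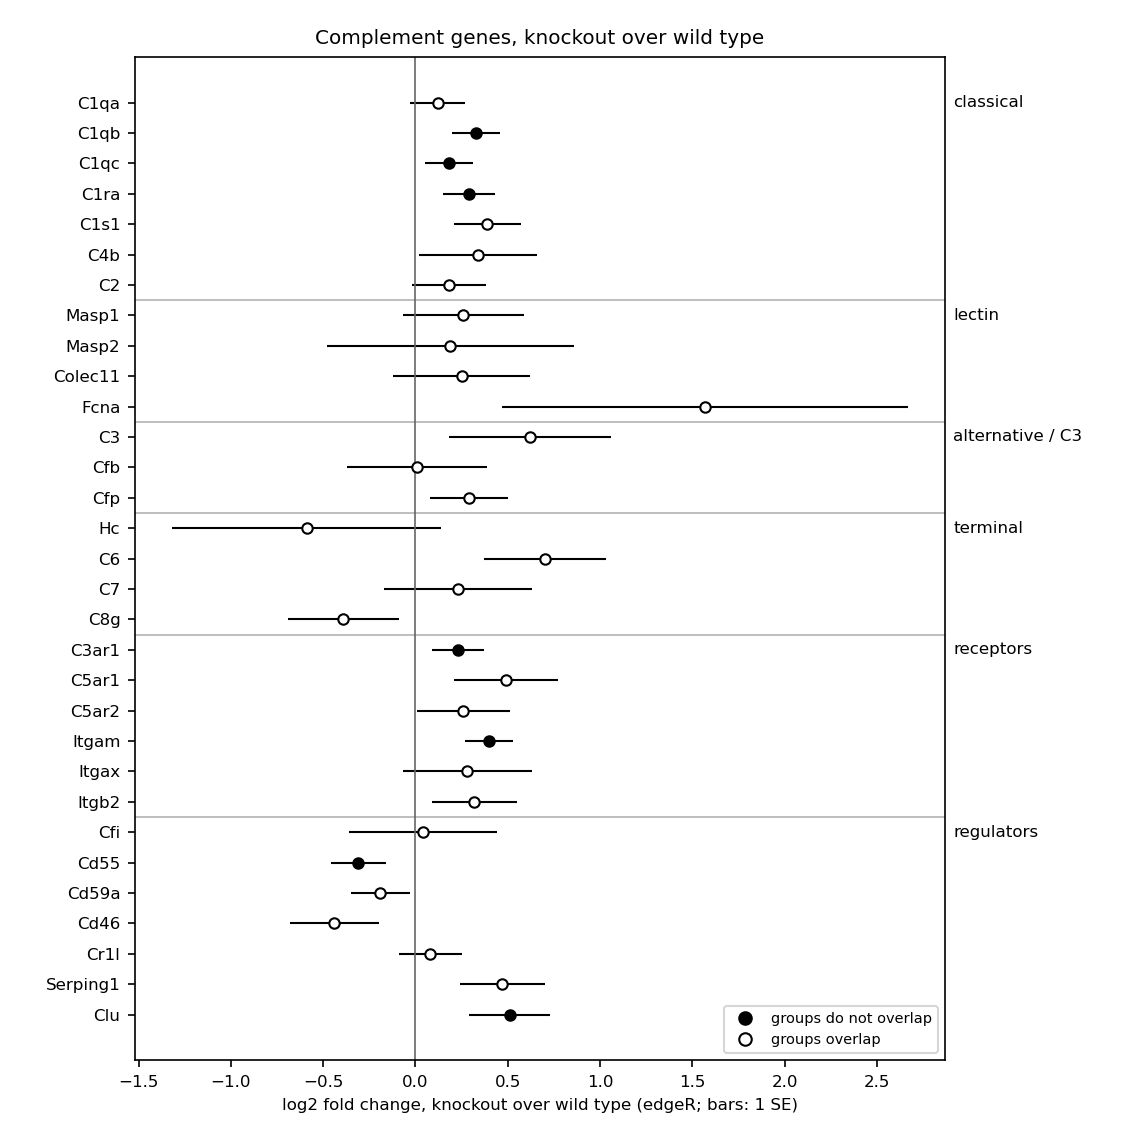
Log2 fold change of each complement gene (knockout over wild type, edgeR) with bars of 1 SE, 3 libraries per group, by pathway arm; filled points mark genes whose groups do not overlap. Classical, lectin, alternative and receptor genes lie above 0, most within 2 SE of it, while terminal pathway genes and regulators lie on both sides.

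The lectin pathway was weakly expressed, and the groups overlapped for each of its members, with none past the test. Masp1, a protease of the mannose-binding lectin complex, measured 15.3, 14.8 and 6.85 CPM in the knockout and 7.93, 10.3 and 12.7 CPM in the wild type. It overlaps the gene Rtp4 and may share its reads. Colec11, a collectin that the kidney is known to make, was at 1.23, 2.53 and 2.84 CPM in the knockout and 1.62, 1.80 and 2.15 CPM in the wild type. Both sets of values overlap, with log2 fold changes of 0.26 ± 0.33 and 0.25 ± 0.37 (edgeR adjusted p = 0.808 and 0.831). Masp1 was 0.07 without knockout replicate 1, and Colec11 was 0.02 without knockout replicate 3. Masp2, the protease that cleaves C4 and C2, had 0.0596 to 0.525 CPM in the knockout and 0.243 to 0.306 CPM in the wild type, and it overlaps the gene Tardbp, so reads may be shared. Fcna, the ficolin of mouse macrophages, had counts of 35, 6 and 225 in the knockout and 28, 49 and 8 in the wild type. A single library, knockout replicate 3, sets its log2 fold change of 1.57 ± 1.10 (edgeR adjusted p = 0.674), which was -0.40 without it.

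C3, on which all 3 routes converge, had a wide spread between wild-type libraries. It measured 2816, 2469 and 1497 CPM in the knockout and 621, 1946 and 1842 CPM in the wild type. Wild-type replicate 1 was far below the other libraries, at 621 CPM, and the highest wild-type value was 3.13 times the lowest. Knockout replicate 3, at 1497 CPM, lay below wild-type replicates 2 and 3, so the groups overlap. Group means were 2261 ± 683 CPM in the knockout and 1469.8 ± 736 CPM in the wild type (SD, n = 3 each), a log2 fold change of 0.62 ± 0.44 (SE; edgeR adjusted p = 0.676). The value was 0.25 without wild-type replicate 1. It was 1.04 without replicate 3 of both groups, a fit that drops the lowest knockout library and keeps the lowest wild-type library.

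Factor B, which forms the C3 convertase of the alternative pathway, had nearly equal group means. Cfb was at 558, 477 and 296 CPM in the knockout and 234, 439 and 651 CPM in the wild type. Its log2 fold change was 0.01 ± 0.38 (edgeR adjusted p = 0.997), -0.29 without wild-type replicate 1 and 0.62 without replicate 3 of both groups. Cfp encodes properdin, the protein that stabilises this convertase and that is made mainly by myeloid cells. It measured 40.5, 42.6 and 55.9 CPM in the knockout and 47.6, 29.9 and 36.4 CPM in the wild type, a log2 fold change of 0.29 ± 0.21 (edgeR adjusted p = 0.674). Properdin did not share the low value of C3 in wild-type replicate 1, where it was at its wild-type maximum, and it was 0.10 on the log2 scale without replicate 3 of both groups.

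The terminal pathway pointed in both directions. C6 and C7 join C5b on the way to the membrane attack complex, Hc is the mouse gene of C5, and C8g encodes the gamma chain of C8. C6 measured 4.42, 6.44 and 4.13 CPM in the knockout and 2.94, 4.15 and 2.11 CPM in the wild type. C7, the highest of the 4, was at 45.0, 84.9 and 34.2 CPM in the knockout and 41.9, 69.2 and 29.2 CPM in the wild type. For C6 a single knockout library, replicate 3, lay below the wild-type maximum, and by a small margin, while for C7 the groups overlap widely. C6 had a log2 fold change of 0.70 ± 0.33 and C7 of 0.23 ± 0.40 (edgeR adjusted p = 0.627 and 0.859). C7 was -0.25 without knockout replicate 2 and 0.63 without wild-type replicate 2. Hc had 0.437 to 1.92 CPM in the knockout and 0.518 to 3.49 CPM in the wild type, and C8g 2.54 to 4.68 in the knockout and 4.33 to 5.91 CPM in the wild type, with log2 fold changes of -0.59 ± 0.73 and -0.39 ± 0.30 (edgeR adjusted p = 0.803 and 0.695). Hc was 0.70 and C8g -0.01 without replicate 3 of both groups. C8g overlaps the gene Fbxw5 and may share its reads.

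All 6 measured receptor genes lay above 0, their median log2 fold change being 0.30. Itgam, Itgax and Itgb2 encode the integrins CR3 and CR4, the phagocytic receptors for cleaved C3, and Itgb2 is the shared beta chain. Itgam measured 51.2, 59.5 and 52.3 CPM in the knockout and 40.2, 45.8 and 37.2 CPM in the wild type. All 3 knockout libraries were above all 3 wild-type libraries. Means were 54.3 ± 4.50 CPM in the knockout and 41.0 ± 4.34 CPM in the wild type (SD, n = 3 each), a ratio of 1.32 and a log2 fold change of 0.40 ± 0.13 (SE; edgeR adjusted p = 0.627).

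Itgax, which is also a marker of dendritic cells, was at 67.5, 68.0 and 26.0 CPM in the knockout and 34.4, 46.3 and 52.5 CPM in the wild type. Itgb2 was at 51.5, 63.1 and 34.1 CPM in the knockout and 32.3, 42.5 and 44.0 CPM in the wild type. Both were lowest of the knockouts in replicate 3, inside or below the wild-type range. Their log2 fold changes were 0.28 ± 0.35 and 0.32 ± 0.23 (edgeR adjusted p = 0.805 and 0.677), 0.07 and 0.11 without knockout replicate 2 and 0.75 and 0.62 without replicate 3 of both groups. Dendritic cell markers had a summed level of 1116, 1195 and 610.3 CPM in the knockout and 715, 966 and 1154 CPM in the wild type, with the lowest value also in knockout replicate 3. Most of each sum was H2-Ab1, at 949, 1001 and 488 CPM in the knockout and 571, 809 and 988 CPM in the wild type. Of the 10 markers, led by H2-Ab1 and Irf8, 7 were above 0, with a median of 0.07 and none at 0 in all libraries. The part of these cells in the Itgax values was not tested.

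Among the anaphylatoxin receptors, C3ar1, the receptor of C3a, measured 35.0, 33.5 and 42.9 CPM in the knockout and 32.2, 32.8 and 30.1 CPM in the wild type. C5ar1, the main receptor of C5a, was at 13.2, 15.4 and 25.5 CPM in the knockout and 15.5, 12.5 and 10.6 CPM in the wild type. C3ar1 does not overlap, although the gap between knockout replicate 2 and wild-type replicate 2 is narrow, and C5ar1 is high in knockout replicate 3 alone. Log2 fold changes were 0.23 ± 0.14 for C3ar1 and 0.49 ± 0.28 for C5ar1 (edgeR adjusted p = 0.653 and 0.641), and 0.08 and 0.03 without replicate 3 of both groups. Neutrophils also express C5ar1, and their 12 markers, led by Csf3r and Ltf, summed to 26.2, 32.4 and 61.3 CPM in the knockout and 61.0, 38.4 and 24.9 CPM in the wild type. Of these, 7 passed the filter, 2 lay above 0, the median was -0.20 and none was at 0 in all libraries. The part of neutrophils in the C5ar1 values was not tested. C5ar2, the second C5a receptor, was at 5.54 to 7.04 CPM in the knockout and 3.98 to 5.99 CPM in the wild type, at 0.26 ± 0.25 (edgeR adjusted p = 0.747) and 0.10 without wild-type replicate 3.

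Vsig4, a receptor for C3b on resident macrophages, was the member that did not pass the filter. It had 0, 2 and 19 counts in the knockout and 0 in every wild-type library, where a count of 0 allows up to 3 counts, 0.0607 to 0.0706 CPM. The 19 counts came from knockout replicate 3, the library that was also highest for Fcna. The limit covers counting error only.

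**Figure D3:**
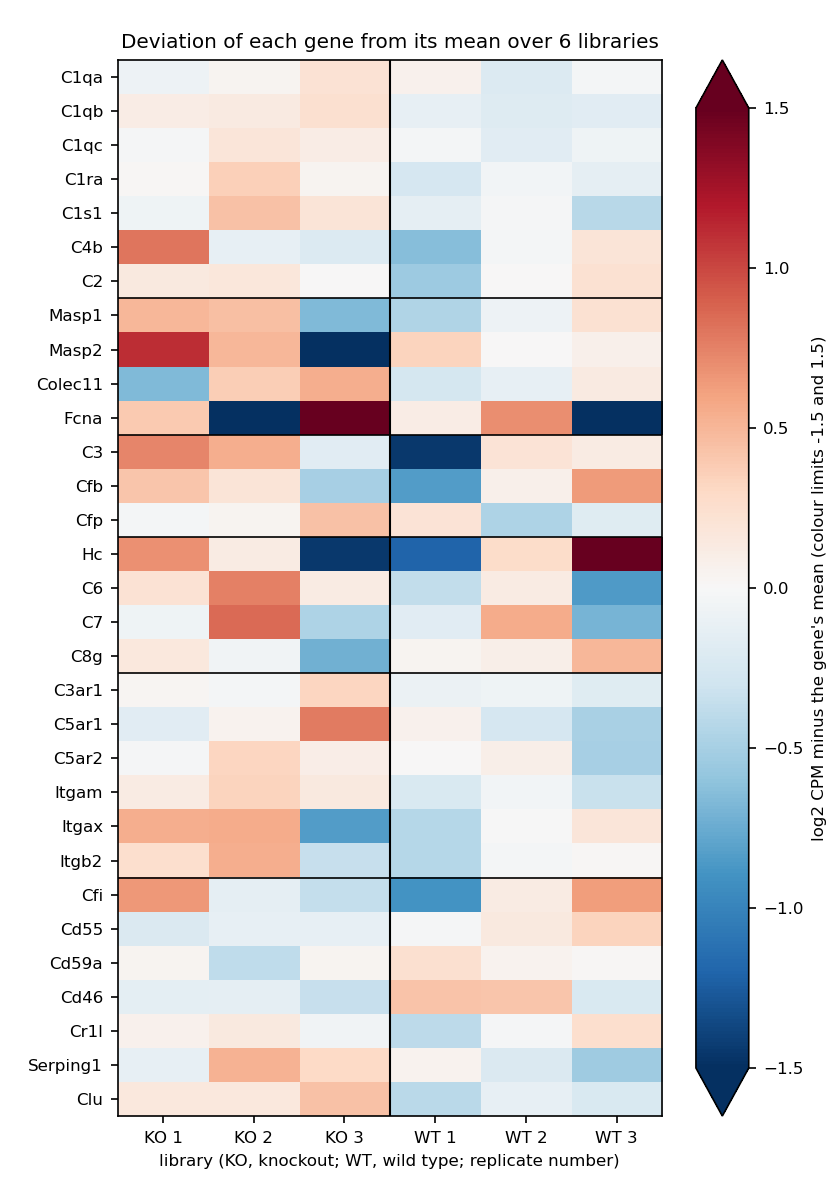
Log2 CPM of each complement gene minus its mean over the 6 libraries, by pathway arm (KO, knockout; WT, wild type), with colour limits at -1.5 and 1.5. C3, Cfb and Cfi are each at their lowest in wild-type replicate 1, and at the lowest of the knockouts in replicate 3.

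Of the 7 regulators, 4 had a log2 fold change above 0 (Clu, Serping1, Cr1l and Cfi) and 3 below (Cd55, Cd46 and Cd59a), and none passed the test. Clusterin binds terminal complexes in solution and is a known gene of injured tubules. Clu measured 3035, 3046 and 3689 CPM in the knockout and 2052, 2501 and 2324 CPM in the wild type. The groups are well apart, with the lowest knockout library at 3035 CPM and the highest wild-type library at 2501 CPM. Means were 3257 ± 375 CPM in the knockout and 2292 ± 226 CPM in the wild type (SD, n = 3 each), a ratio of 1.42 and a log2 fold change of 0.51 ± 0.22 (SE; edgeR adjusted p = 0.627; DESeq2 adjusted p = 0.259). Injured tubule markers, led by Spp1 and Havcr1, summed to 27672, 22556 and 23919 CPM in the knockout and 19502, 23322 and 32609.7 CPM in the wild type. Of the 8 markers, 4 were above 0, the median was 0.06 and none was at 0 in all libraries. Most of each sum was Spp1, at 24984, 19650 and 20968 CPM in the knockout and 17465, 20580 and 29207 CPM in the wild type. The part of injured tubules in the Clu values was not tested. Serping1 was at 266, 414 and 357 CPM in the knockout and 299.98, 249.95 and 200.1 CPM in the wild type. Knockout replicate 1 falls within the wild-type range, and the log2 fold change of 0.47 ± 0.23 (edgeR adjusted p = 0.627) was 0.31 without knockout replicate 2.

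Cd55 encodes decay-accelerating factor, which dissociates C3 convertases. It measured 17.9, 19.1 and 19.2 CPM in the knockout and 20.7, 23.1 and 26.3 CPM in the wild type. All knockout libraries were below all wild-type libraries, a log2 fold change of -0.31 ± 0.15 (edgeR adjusted p = 0.627). Cd46, a cofactor for cleavage of C3b and C4b that is expressed narrowly in the mouse, was at 6.59, 6.63 and 5.70 CPM in the knockout and 9.81, 9.73 and 6.21 CPM in the wild type. Wild-type replicate 3 lies within the knockout range, and the log2 fold change was -0.44 ± 0.24 (edgeR adjusted p = 0.641). Cd59a, which blocks the membrane attack complex, was at 36.3, 26.9 and 36.0 CPM in the knockout and 41.4, 36.5 and 35.5 CPM in the wild type. Its groups overlap, at -0.19 ± 0.16 (edgeR adjusted p = 0.709), and the value was -0.07 without knockout replicate 2.

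Cr1l, the gene of Crry, is the broadly expressed regulator of C3 convertases in mice. It measured 59.8 to 68.2 CPM in the knockout and 47.2 to 73.4 CPM in the wild type, with a log2 fold change of 0.08 ± 0.17 (edgeR adjusted p = 0.884), which was -0.07 without wild-type replicate 1. Cr1l and Cd46 overlap at their ends on chromosome 1 (195098711 to 195098784), where reads may be shared. Cfi, the protease that inactivates C3b, was at 76.2, 44.4 and 37.9 CPM in the knockout and 26.2, 52.9 and 75.2 CPM in the wild type. These values overlap fully, with a log2 fold change of 0.04 ± 0.40 (edgeR adjusted p = 0.98), -0.32 without knockout replicate 1 and 0.61 without replicate 3 of both groups.

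For some members the spread within a group was as large as the difference between groups, or larger. C3, Cfb, Cfi, C4b and C2 were all lowest of the 6 libraries in wild-type replicate 1, and each of them was lowest of the knockouts in replicate 3. Other members did not follow this order. The lowest of the 6 values was in knockout replicates 1, 2 and 3 for 2, 2 and 6 of the 31 members, and in wild-type replicates 1, 2 and 3 for 9, 4 and 8 members. Knockout replicate 3 also held the highest value for 8 members. Wild-type replicate 1 and knockout replicate 3 had the least RNA of the thick ascending limb, distal nephron and collecting duct. The 10 markers of these segments, led by Umod and Cdh16, summed to 6234, 4741 and 1967 CPM in the knockout and 2605, 6190.00 and 4874 CPM in the wild type. Of these, 2 were above 0 in the knockout over wild-type comparison, with a median of -0.14 and none at 0 in all libraries. The 10 fibroblast and myofibroblast markers, led by Col3a1 and Col1a2, summed to 2527, 4776 and 7373 CPM in the knockout and 4079.8, 2603 and 1864 CPM in the wild type, highest of each group in those same libraries. All 10 were above 0, with a median of 0.77 and none at 0 in all libraries. The part of these cells in the complement values was not tested.

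Lists of genes of other cell types were measured as well, which does not show that each cell type was present. Hepatocyte genes, led by Trf and Fga, had summed levels of 310.4 to 711 CPM in the knockout and 221 to 852 CPM in the wild type, and 2 of the 9 tested were above 0, with a median of -0.47. Trf, higher in all knockout libraries than in any wild-type library, was at 0.44 ± 0.18 (edgeR adjusted p = 0.627), and Fga at 0 ± 0.81. Proximal tubule markers, led by Kap and Slc34a1, spanned 2417 to 8203 CPM in the knockout and 5205 to 16398 CPM in the wild type, with 1 of 12 above 0 and a median of -0.36. Endothelial markers, led by Plvap and Pecam1, spanned 365 to 982 in the knockout and 385 to 722 CPM in the wild type, with all 8 above 0 and a median of 0.32. The 10 lymphocyte and plasma cell genes, led by Xbp1 and Jchain, spanned 296 to 382 in the knockout and 248 to 330.2 CPM in the wild type, with 7 above 0 and a median of 0.19. Jchain, a gene of plasma cells, stood apart from this median at 88.2, 108 and 53.4 CPM in the knockout and 5.29, 6.72 and 3.55 CPM in the wild type. Its log2 fold change was 4.0 ± 0.34, with the smallest edgeR p of all genes tested (edgeR adjusted p = 0.0568; DESeq2 adjusted p = 5.52e-30; limma-voom adjusted p = 0.0106). The adipocyte list, led by Fabp4 and Car3, spanned 45.9 to 436 in the knockout and 61.0 to 134 CPM in the wild type, with all 6 tested genes above 0 and a median of 1.91. The highest sum, 436 CPM, was in knockout replicate 1. Car3 measured 131, 2.60 and 4.83 CPM in the knockout and 4.63, 35.9 and 2.70 CPM in the wild type. On the log2 scale, limma-voom put Car3 at -1.5 and Fabp4 at 0.15. None of these lists had a gene at 0 in all libraries, and their part in the complement values was not tested.

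**Figure D4:**
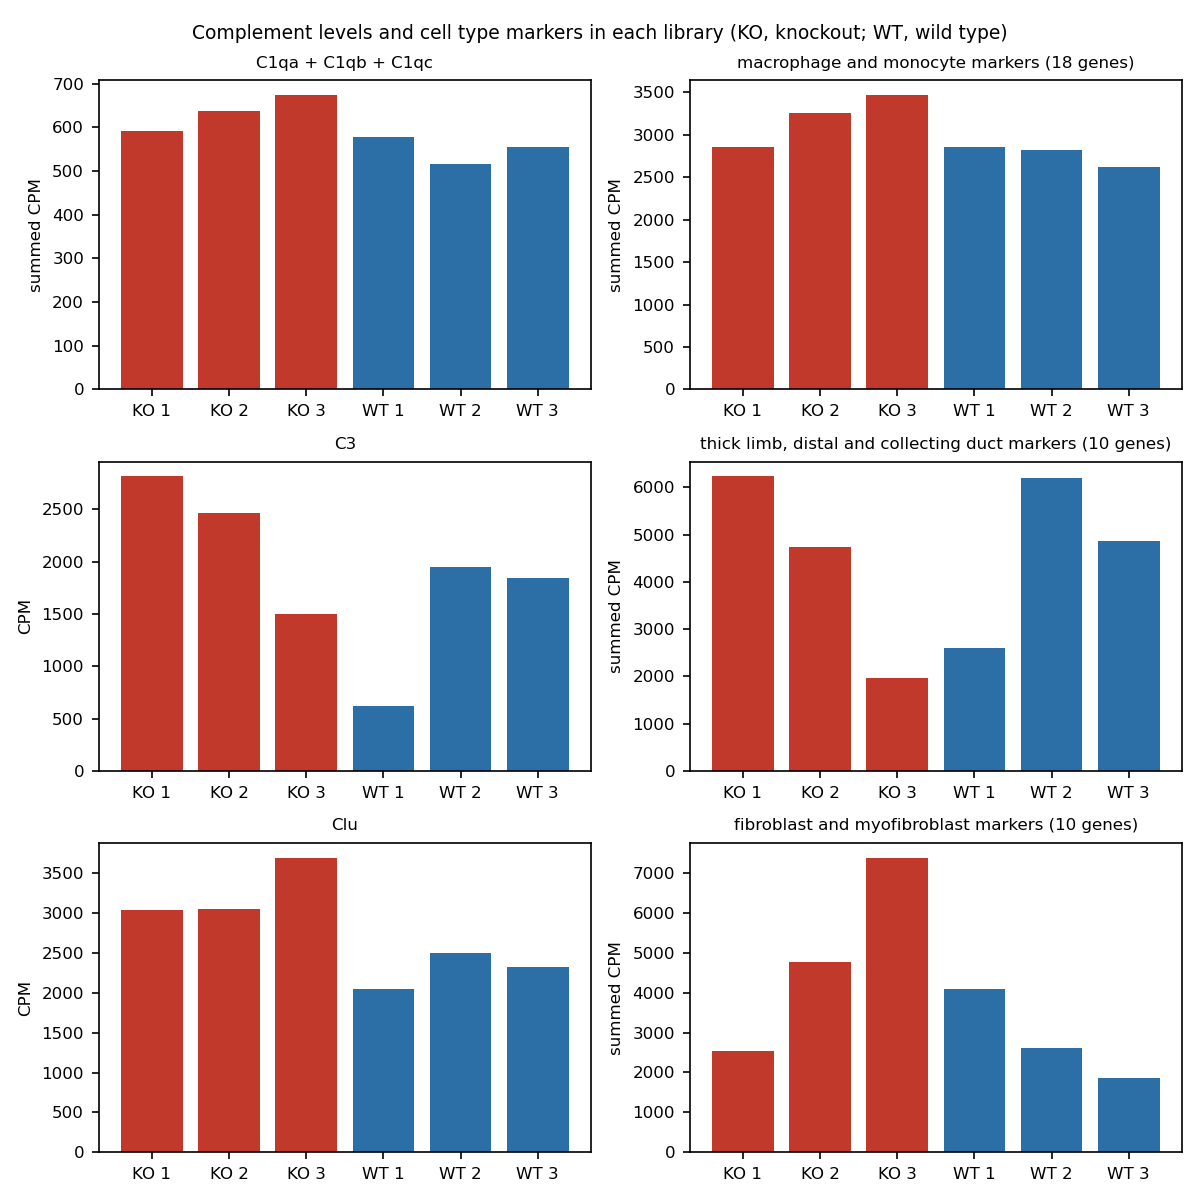
Level of C1q (3 chains summed), C3 and Clu in each library on the left, and summed CPM of macrophage and monocyte, distal nephron, and fibroblast and myofibroblast markers on the right (KO, knockout; WT, wild type). C3 and the distal markers are both low in knockout replicate 3 and wild-type replicate 1, whereas Clu is above all wild-type libraries in each knockout library.

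Complement genes outside the list were mixed. Of 26 further complement genes, 19 passed the filter, 9 lay above 0 and 10 below, around a median of -0.03 on the log2 scale, and 0 were called (edgeR; DESeq2 and limma-voom called none either; 1 was at an unadjusted edgeR p under 0.05). C1s2, the second copy of C1s, was at 3.69, 4.55 and 4.83 CPM in the knockout and 2.45, 3.26 and 2.51 CPM in the wild type, without overlap, at 0.67 ± 0.26 (edgeR adjusted p = 0.627). C1rb, the second copy of C1r, stood at 0.58 ± 0.32, C4a, the copy of C4b, at -0.83 ± 0.37, the membrane protein gene Csmd1 at 0.90 ± 0.39, and C1qbp, which encodes a mitochondrial protein that binds C1q, at -0.28 ± 0.17. The groups overlap for C1rb, C4a, Csmd1 and C1qbp (edgeR adjusted p = 0.641, 0.627, 0.627 and 0.653). C4a was low, at 0.794 to 1.03 CPM in the knockout and 0.991 to 2.16 CPM in the wild type. By limma-voom its log2 fold change was -0.23.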

How the data were processed

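Per the labels' protocols, mRNA libraries were made from column-purified total RNA. The table the authors deposited gives raw counts of reads by gene symbol, as whole numbers with 1 column for each library. The submitters' processing notes name GRCm38 and mm10, which is 1 build under 2 names. Aligner, counting program and strand setting: not given in the sources used here, so overlapping and near-identical genes may share counts. Titles gave the groups and replicate numbers. Knockout columns give the parts of the library name in another order and were matched by those parts.

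filterByExpr kept 18927 of 34714 genes with 99.96% of all counts. After TMM scaling, edgeR 4.0.16 (R 4.3.3) tested knockout against wild type by quasi-likelihood (robust = TRUE), with no covariate and Benjamini-Hochberg adjustment over all genes tested. The biological coefficient of variation was 26.9%. The SE of a log2 fold change was taken from its F statistic (change over root F). Members, gene lists and alternatives were chosen with earlier results of these data known. All 32 members are named. From the further complement genes the 6 of smallest p were named among those with a mean of 1 CPM or more in a group, and from each cell type list the 2 with the highest mean. One of these 6 genes is not reported here. Transcript lengths (longest GENCODE M21 transcript) were found for 89.7% of the tested genes and all 32 members. Promoters and the microRNA came from RefSeq (GRCm38.p6). The procedure was tested on simulated counts. No library copied another (chi-square per degree of freedom of 31.1 or more for each pair). Alternatives included DESeq2 1.42.0, limma-voom (limma 3.58.1), other scalings and filters, and each library left out.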

Additional observations from a re-analysis of the deposited data

How the results depend on the processing

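Over 17 alternatives, 0 members were called in any, and 506 of 525 member values kept their sign. Values of Clu, Itgam, C6, Cd55 and Cd46 stayed within 1.5 times their size in all 17 alternatives. The number of genes called over the whole table was 62 by the DESeq2 Wald test, 3 by limma-voom, 2 when no filter was used and 1 under the replicate block; without 1 library it ranged from 0 to 1, and without replicate 3 of both groups it was 1. The median over members was 0.14 without knockout replicate 2 and 0.33 without wild-type replicate 3, its lowest and highest value with 1 library left out. Members above 0 numbered 22 to 26 in those fits, and 27 of 32 with no filter, where the median was 0.27.

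Signs turned as follows, and the cause was not tested. Cfb was 0 with upper-quartile factors, and with limma-voom Fcna was -1.15 and Cfi -0.04. With 1 library left out, Cfb ranged from -0.29 to 0.40, Cfi from -0.32 to 0.42, C4b from -0.05 to 0.53, C2 from -0.01 to 0.35, Cr1l from -0.07 to 0.25, C7 from -0.25 to 0.63, Hc from -1.08 to 0.30, Masp2 from -0.42 to 0.69 and Fcna from -0.40 to 2.13. Without replicate 3 of both groups Hc was 0.70 and Fcna -0.84. With replicate number as a block Masp2 was -0.05 and 25 members lay above 0, at a median of 0.21. Deviations from the group mean had correlations of -0.28, 0.18 and -0.29 between same-numbered libraries, for replicates 1, 2 and 3. Between libraries of unlike number they were -0.20 to 0.37. With 3 libraries per group these correlations depend on each other and cannot show whether libraries were handled in pairs. The number is not taken as a pairing. The fit without replicate 3 of both groups therefore rests on no pairing either.

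Masp2, Fcna and Vsig4 rest on few counts, and 3 libraries per group limit all tests.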
